A study of Mus musculus with 4 samples.

Results

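The SOX transcription factors were followed in primary cultures of mouse cortical neurons in which the decapping scavenger enzyme DcpS was depleted by RNA interference. The 10 genes Sox1, Sox2, Sox3, Sox4, Sox6, Sox8, Sox9, Sox11, Sox12 and Sox21 were picked by symbol from a deposited table of 32681 genes, and all 10 were among the 18110 genes that passed a filter on low counts. The cultures came from the neocortex of wild-type CD-1 mice, an outbred stock, taken at embryonic day 13, and were grown in Neurobasal medium with B27 supplement. The labels name 2 cultures given a control short hairpin RNA (shRNA) and 2 given an shRNA against DcpS. They name no further allele or agent in either group. Both DcpS titles carry the same tag, shDcPS-2set, and no other hairpin against DcpS is named. Effects of this hairpin on other genes cannot be told apart from loss of DcpS. The 3′ untranslated regions of genes were scanned for the words ACGTGCA and CACGTGC. Of 646 scanned genes that were lower with DcpS shRNA 214 held a word, against 1097 of 13708 among all tested genes scanned. Of the 10 SOX members 1 held a word, Sox11 (ACGTGCA). Whether the hairpin acted through these words was not tested. The targets of the control hairpin, the share of cells that took up a hairpin and the time from transfection to harvest could not be read from the labels.

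The libraries, 4 in number, held 17754768 to 21793685 reads. Dcps itself stood at 499.8 and 506.6 normalised reads in the control cultures and at 114.5 and 119.6 after DcpS depletion, a log2 fold change of −2.10 (SE 0.11, limma, Benjamini-Hochberg adjusted p 1.52e-08). Nothing in the labels states separate litters or preparations, so p-values measure the spread among these cultures, which may be technical. Markers of neurons, the labelled cell type, were abundant. Tubb3 stood at 19013 to 19935 normalised reads and Map2 at 20246 to 21604 over the 4 libraries, and the list of 12 summed to 101931 to 103224 normalised reads in the controls and 98777 to 99926 with DcpS shRNA. Of these 12 genes 1 was higher (Rbfox3, log2 fold change 0.24) and 2 were lower (Snap25, −0.26, and Syt1, −0.22) with DcpS shRNA. Of all 18110 genes tested 2.14% were higher and 3.65% lower (limma, adjusted p under 0.05). DESeq2 called neither Rbfox3 (0.136) nor Syt1 (0.179). Without control 2 the calls of Rbfox3 (adjusted p 0.318) and Syt1 (0.333) ended, and without control 1 those of Snap25 (0.0692) and Syt1 (0.0506).

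SOX proteins bind the minor groove of DNA through a high-mobility-group (HMG) box and bend it, and they usually act with a partner factor that sets which genes are reached. The family is divided into groups by the sequence of that box. SOXB1 factors (Sox1, Sox2, Sox3) keep neural stem cells undifferentiated, and the SOXB2 factor Sox21 opposes them. SOXC factors (Sox4, Sox11, Sox12) are strongest in newborn neurons, where they activate neuronal genes. The SOXD factor Sox6 has no activation domain of its own and acts in cortical progenitors, in interneurons and in cartilage, and the SOXE factors Sox8 and Sox9 act in glial fate and, for Sox9, in radial glia and cartilage.

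The SOXC genes Sox4 and Sox11 are shown first because they had the highest SOX levels in these cultures and their HMG boxes are close to each other. The coding sequence of the box is given for both over 79 codons (237 bases), 5′ to 3′ on the coding strand, from GENCODE M21 transcripts (GRCm38). Both genes lie on the minus strand, with the boxes at chr13:28952617-28952853 (Sox4) and chr12:27342034-27342270 (Sox11), each inside a coding exon. Capitals mark the 25 positions at which the bases differ.
Sox4: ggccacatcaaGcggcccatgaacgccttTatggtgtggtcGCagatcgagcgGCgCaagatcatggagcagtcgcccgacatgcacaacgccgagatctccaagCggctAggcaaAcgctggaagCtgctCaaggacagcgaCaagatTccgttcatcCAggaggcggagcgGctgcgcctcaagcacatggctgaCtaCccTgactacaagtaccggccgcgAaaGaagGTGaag
Sox11: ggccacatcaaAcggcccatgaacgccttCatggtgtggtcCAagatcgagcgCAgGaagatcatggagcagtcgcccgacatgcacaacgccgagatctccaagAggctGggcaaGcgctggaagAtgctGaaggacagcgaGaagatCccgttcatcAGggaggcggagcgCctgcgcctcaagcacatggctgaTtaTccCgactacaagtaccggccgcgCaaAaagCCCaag

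Over this stretch Sox4 and Sox11 were identical at 89.5% of bases. Sox1 and Sox2 were identical at 89.5% and Sox8 and Sox9 at 85.2%, while Sox4 and Sox6 shared 57.8%. The longest run of bases common to transcripts of any pair of the 10 genes was 48 bases, in the boxes of Sox4 and Sox11, and is printed because reads inside it could come from either gene.
Sox4 and Sox11: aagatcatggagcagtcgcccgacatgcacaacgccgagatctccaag
No word of 50 bases was shared between transcripts of different SOX members. The sources used here do not state read length or how reads that fit several genes were treated.

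SOXC genes dominated the SOX transcripts of these cultures. Per kilobase of annotated exon, Sox4 had the highest level, 4268 ± 170 normalised reads in the controls (SD, n = 2), followed by Sox11 at 2811 ± 43.8, and the controls of the 2 genes did not overlap. Sox2 (759 ± 86.9) and Sox12 (675 ± 27.9) came next and differed by less than the spread of the Sox2 controls. Sox9 (233 ± 27.4) followed, with both controls above those of Sox21 (199 ± 2.48). Sox21, Sox1 (195 ± 17.4) and Sox3 (168 ± 31.1) overlapped, each with the next. Sox6 (115 ± 3.98) and Sox8 (55.6 ± 1.92) were lowest, each clear of the gene above it. Sox6 has 16 annotated transcripts over 14832 exonic bases, and its level per kilobase depends on which of them are counted as its length. Together the 3 SOXC genes made up 81.1% and 82.5% of the summed level per kilobase of the 10 genes in the control cultures against 78.2% and 79.2% after DcpS depletion. The share of Sox4 alone was 44.9% and 45.1% in the control cultures against 40.3% and 40.4% after DcpS depletion.

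**Figure D1:**
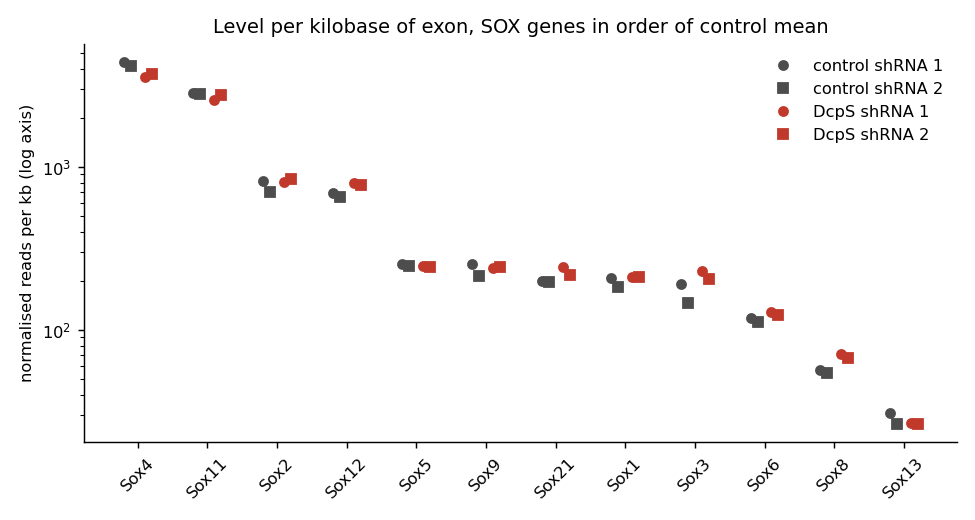
Normalised reads per kilobase of exon (log axis) for the 10 SOX members and for Sox5 and Sox13, ordered by the control mean, with 1 point per library. Sox4 and Sox11 sit above 2500 in all 4 libraries and Sox8 below 75.

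With DcpS shRNA a pair of SOX genes passed the test, in opposite directions. Of the 10 members 1 was higher, Sox12, and 1 was lower, Sox4, and 8 did not pass (limma on log2 normalised reads, Benjamini-Hochberg adjusted p under 0.05 over all genes tested). Among all 18110 genes tested 5.79% were called, 2.14% higher and 3.65% lower. The estimate was above 0 for 8 of the 10 members and for 50.2% of all genes tested. The median log2 fold change of the members was 0.12, against 0.00 over all genes. Both DcpS shRNA libraries lay above both controls for 6 members and below both for 2, where 24.4% and 24% of all genes did. Leaving out 1 library moved the number of members called from 0 without control 2, where 3 members had an unadjusted p under 0.05 (limma), to 5 without DcpS shRNA 2. A smaller amount of RNA per cell cannot be told apart from fewer cells of a type in these bulk cultures.

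**Figure D2:**
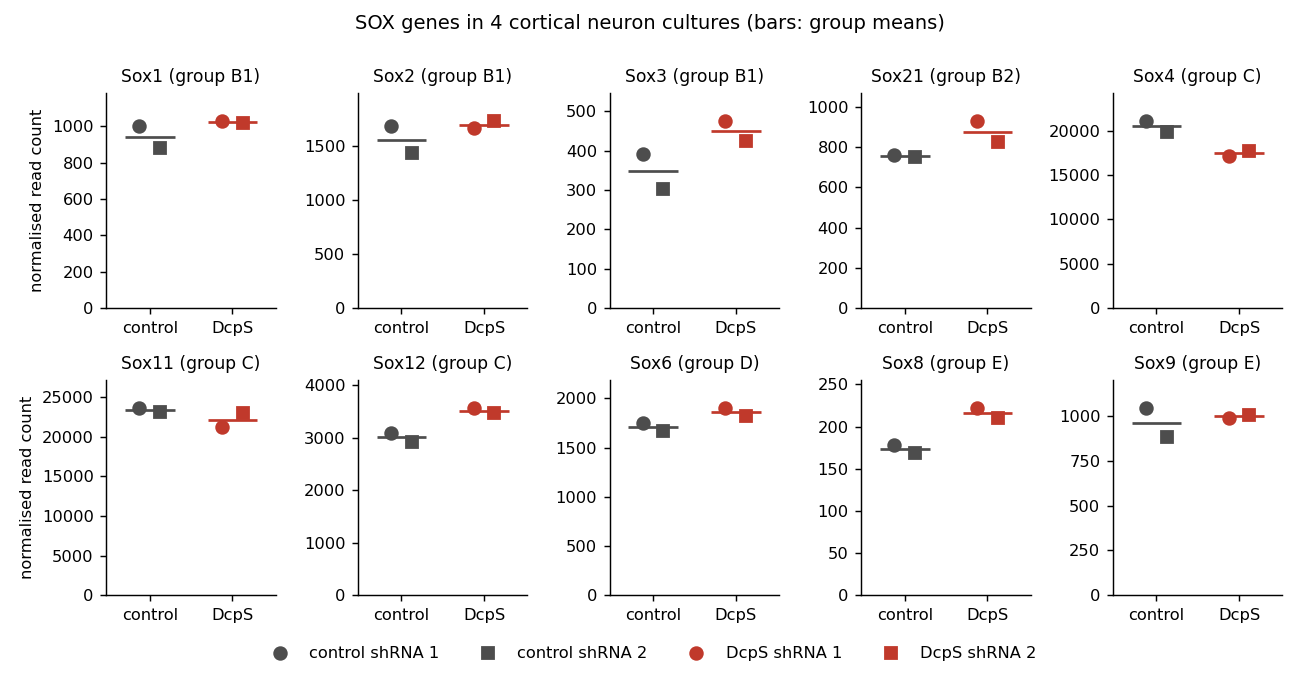
Normalised read count of each SOX member in the 4 libraries (vertical axes start at 0, horizontal bars are group means of 2 libraries). Sox4 and, narrowly, Sox11 are lower in both DcpS shRNA libraries, and Sox12, Sox3, Sox8, Sox21, Sox6 and Sox1 are higher in both.

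Among the SOXC genes, Sox4 fell and Sox12 rose. Sox4 is a single-exon gene on chromosome 13 (28948919 to 28953713, minus strand, ENSMUSG00000076431.4) whose protein activates genes of young neurons and promotes survival of progenitors. Sox4 was counted at 21044 and 19889 normalised reads in the control cultures against 17146 and 17737 after DcpS depletion. Both DcpS shRNA libraries were below both controls, and the mean fell by 14.8% (log2 fold change −0.23, SE 0.05, adjusted p 0.0126). That call ended without control 1 (adjusted p 0.360) or control 2 (0.0966), while the estimate stayed between −0.27 and −0.19 in every leave-one-out fit. Sox12 (chromosome 2, 152393611 to 152398063, minus strand, ENSMUSG00000051817.8) encodes the weakest activator of the group. It had 3096 and 2920 normalised reads in the control cultures against 3560 and 3462 after DcpS depletion. Both DcpS shRNA libraries were above both controls, a rise of 16.8% (log2 fold change 0.22, SE 0.05, adjusted p 0.0199), and the call ended without control 2 (0.279) and with DESeq2 (0.0526).

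Sox11 (chromosome 12, 27334264 to 27342574, minus strand, ENSMUSG00000063632.6), which is needed for the growth and maturation of newborn neurons, was the third SOXC gene. It was counted at 23617 and 23103 normalised reads in the control cultures against 21298 and 23081 after DcpS depletion. DcpS shRNA 2 lay just under control 2 and only DcpS shRNA 1 was clearly lower. The log2 fold change was −0.08 (SE 0.05, 95% interval −0.19 to 0.04, adjusted p 0.492), and it was called without DcpS shRNA 2 (−0.13, adjusted p 0.00778).

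Set against each other within a library, the SOXC genes stood in different proportions in the groups. Sox12 had 14.7% and 14.7% of the normalised reads of Sox4 in the control cultures against 20.8% and 19.5% after DcpS depletion. The group means were 14.7 ± 0.0214% and 20.1 ± 0.878% (SD, n = 2 each), a ratio of 1.37. Relative to Sox11, Sox12 had 13.1% and 12.6% in the control cultures against 16.7% and 15% after DcpS depletion. Sox11 had 112% and 116% of the reads of Sox4 in the control cultures against 124% and 130% after DcpS depletion. None of these 3 ratios overlapped between the groups, and any 2 of them fix the remaining 1. For single genes, both DcpS shRNA libraries lay above both controls for 24.4% of all genes tested and below both for 24%. A ratio of read counts within a library does not depend on library scaling. The pairs were chosen with the values known, and with 2 libraries a group an exact two-sided permutation test cannot give a p below 0.333, so they are given without a test.

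**Figure D3:**
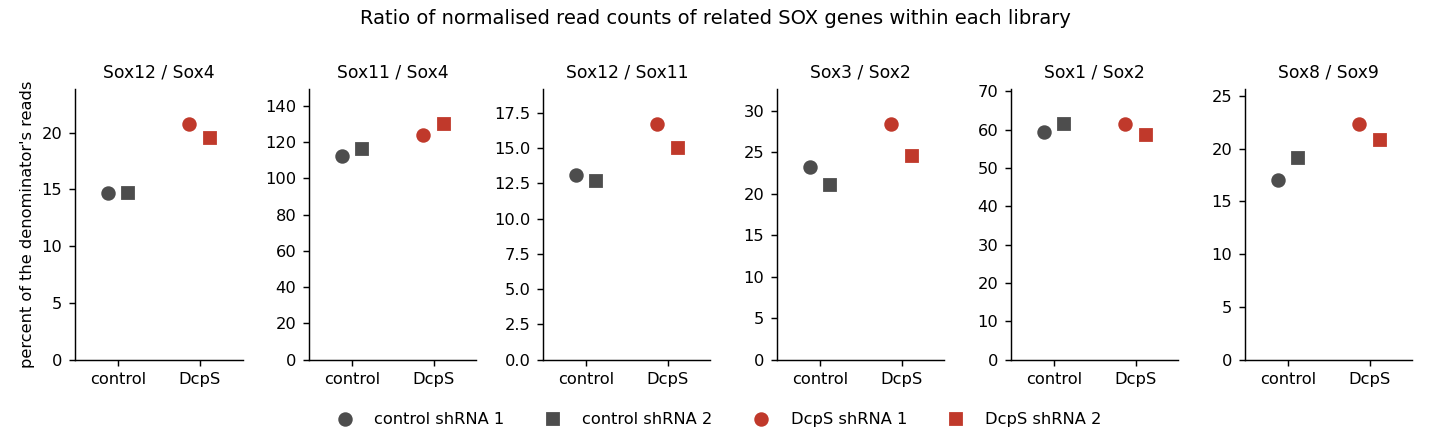
Normalised read count of 1 SOX gene as a percentage of a related one in each library, for 6 pairs (vertical axes start at 0). Sox12 over Sox4 is 14.7% in both controls and 20.8% and 19.5% with DcpS shRNA, while Sox1 over Sox2 overlaps between the groups.

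Overlapping genes limit these values. In GENCODE M21 the exons of the long noncoding RNA Gm26735 cover 54.6% of the exonic bases of Sox4 on the opposite strand. Gm4675 covers 18.8% of Sox21 and 2810468N07Rik 10.6% of Sox8, also on the opposite strand. The miRNA gene Gm25239 lies on the same strand as Sox1 and covers 86 of its exonic bases (1.78%). Whether strand was used in counting is not given. Reads in these stretches may have been left out, or assigned to either gene where both were counted. Gm4675 had 29.5 and 28.7 normalised reads in the control cultures against 40.0 and 31.3 after DcpS depletion, well below Sox21. Gm26735, 2810468N07Rik and Gm25239 were looked up and are absent from the deposited table under these names, so it credits no reads to them there. Whether the annotation used in counting held them is not given. The long noncoding RNAs Sox1ot and Sox2ot, which span Sox1 and Sox2 on the same strand, share no exonic base with them. Sox1ot had 223 and 277 normalised reads in the control cultures against 301 and 249 after DcpS depletion, and Sox2ot 137 and 164 against 169 and 144. Both overlapped between the groups.

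The promoters of Sox4 and Sox12 are printed because these genes moved in opposite directions. The windows run from 250 bases before to 50 bases after the annotated start and come from RefSeq (GRCm38.p6), with Sox4 at chr13:28953650-28953949 and Sox12 at chr2:152397997-152398296, both on the minus strand. Capitals mark the CCAAT box (CCAAT or ATTGG), the octamer bound by POU factors (ATGCAAAT or ATTTGCAT) and a SOX core word (ACAAAG or CTTTGT), none of which overlap each other here.
Sox4: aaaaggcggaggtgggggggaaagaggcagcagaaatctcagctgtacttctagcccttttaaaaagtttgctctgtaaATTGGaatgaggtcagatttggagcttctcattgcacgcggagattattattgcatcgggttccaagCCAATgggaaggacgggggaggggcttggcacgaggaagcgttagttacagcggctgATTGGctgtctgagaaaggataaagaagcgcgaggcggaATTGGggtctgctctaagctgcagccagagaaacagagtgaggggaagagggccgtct
Sox12: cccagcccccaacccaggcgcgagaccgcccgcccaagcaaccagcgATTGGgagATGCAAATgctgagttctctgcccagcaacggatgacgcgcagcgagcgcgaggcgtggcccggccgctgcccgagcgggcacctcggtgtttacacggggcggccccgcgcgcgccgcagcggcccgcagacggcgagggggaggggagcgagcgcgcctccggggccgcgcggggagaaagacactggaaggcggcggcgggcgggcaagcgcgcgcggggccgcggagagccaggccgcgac
The Sox4 window held 4 CCAAT boxes, no octamer and no GC box (GGGCGG or CCGCCC). The Sox12 window held 1 CCAAT box, 1 octamer and 4 GC boxes, and neither window held the SOX core word. RefSeq windows were found for 8 of the 10 members, and an octamer was present in those of Sox1 and Sox12, against 1.74% of 32851 promoters of the same length. A CCAAT box was present for 6 of the 8 (37.4% of all promoters) and a GC box for 6 (35.7%). The SOX core word was present for Sox2 and Sox6 (18.7%) and the word TATAAA or its reverse complement for Sox6 (13.6%). Sox6 has 6 windows and was counted if any of them held the word, while the shares of all promoters are per window.

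The SOXB1 genes had estimates above 0, and none passed. Sox2 (chromosome 3, 34650405 to 34652461), the factor that maintains neural stem cells, had 1688 and 1436 normalised reads in the control cultures against 1670 and 1731 after DcpS depletion. Control 1 lay between the DcpS shRNA libraries, so the groups overlapped, and the log2 fold change was 0.13 (95% interval −0.02 to 0.27, adjusted p 0.355). Sox1 (chromosome 8, 12395295 to 12400126), a marker of neuroepithelial cells, had 1001 and 882 in the control cultures against 1027 and 1015 after DcpS depletion (log2 fold change 0.12, 95% interval −0.03 to 0.27, adjusted p 0.382). Both DcpS shRNA libraries were above both controls, but the group means differed by less than the controls did from each other.

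Sox3, on the X chromosome (60891366 to 60893430), had the largest estimate of the 10 members. It was counted at 392.4 and 301.5 normalised reads in the control cultures against 474 and 425 after DcpS depletion. Both DcpS shRNA libraries were higher than both controls, and the log2 fold change was 0.38 (SE 0.11, 95% interval 0.14 to 0.62, adjusted p 0.0603). It passed without the expression filter (adjusted p 0.0238), without control 1 (0.000109) and without DcpS shRNA 2 (0.00650), with estimates from 0.19 to 0.57 over the leave-one-out fits. Sox3 had 23.2% and 21% of the reads of Sox2 in the control cultures against 28.4% and 24.5% after DcpS depletion, while Sox1 had 59.3% and 61.4% against 61.5% and 58.6%. Control 2 was the lowest of the 4 libraries for all 8 members with an estimate above 0, the called Sox12 included.

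Sox21 (chromosome 14, 118233232 to 118237030), the SOXB2 factor that promotes exit from the progenitor state, stood at 763 and 750 normalised reads in the control cultures against 929 and 825 after DcpS depletion. The DcpS shRNA libraries were both higher but differed from each other by more than 1 of them did from the controls. The log2 fold change was 0.21 (SE 0.07, 95% interval 0.06 to 0.36, adjusted p 0.106), and it passed without DcpS shRNA 2 (0.30, adjusted p 0.00948).

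The SOXD and SOXE members also did not pass. Sox6 (chromosome 7, 115470872 to 116038796) had 1752 and 1669 normalised reads in the control cultures against 1900 and 1824 after DcpS depletion (log2 fold change 0.12, 95% interval 0.00 to 0.24, adjusted p 0.255). Both DcpS shRNA libraries were higher. Sox8 (chromosome 17, 25565892 to 25570686), a glial factor, had 178 and 169 in the control cultures against 222 and 210 after DcpS depletion. The groups did not overlap, and the log2 fold change was 0.31 (SE 0.12, 95% interval 0.07 to 0.56, adjusted p 0.145). Sox9 (chromosome 11, 112782224 to 112787760), a factor of radial glia and astrocytes, had 1044 and 884 in the control cultures against 992 and 1007 after DcpS depletion. Its groups overlapped, the log2 fold change was 0.06 (95% interval −0.10 to 0.21, adjusted p 0.751), and it turned to −0.06 without control 2. Sox8 had 17.0% and 19.1% of the reads of Sox9 in the control cultures against 22.3% and 20.9% after DcpS depletion.

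**Figure D4:**
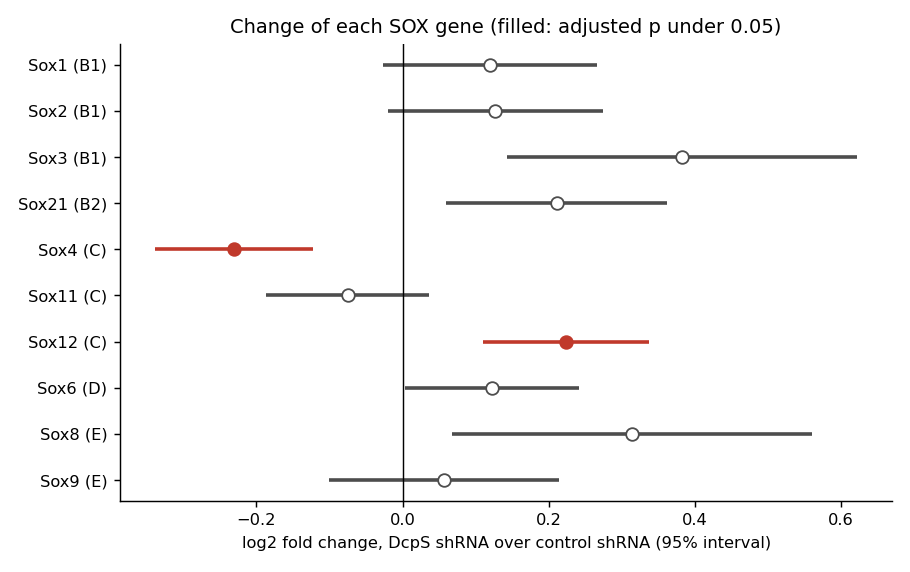
Log2 fold change of each SOX member, DcpS shRNA over control shRNA, with its 95% interval from limma, not adjusted for the number of genes. Filled points passed an adjusted p under 0.05: Sox4 at −0.23 and Sox12 at 0.22.

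Of the rest of the SOX family 7 genes were in the table and 2 passed the filter. Sox5, the SOXD factor of deep-layer neurons, had 3626 and 3548 normalised reads in the control cultures against 3545 and 3477 after DcpS depletion (log2 fold change −0.03, adjusted p 0.815). Sox13 had 134 and 114 against 116 and 114 (−0.10, adjusted p 0.787). The oligodendrocyte factor Sox10 had 0 reads in both controls and 1 and 4 reads with DcpS shRNA. The endothelial factor Sox18 had 4 and 3 reads in the controls and 0 in both DcpS shRNA libraries, where a count of 0 allows up to 0.138 and 0.169 CPM, by counting error only. Sox7, also endothelial, had 5 and 1 reads against 0 and 1, Sox15 had 0 and 0 against 0 and 3, and Sox30 had 11 and 6 against 3 and 5. At these depths no difference could be read for the last 5 genes.

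Among genes that work with SOX factors, those that passed in the main setting were lower. Of 28 tested partners and regulators 4 were lower and 0 higher, with a median log2 fold change of −0.05. Of all genes tested 3.65% were lower and 2.14% higher, with a median of 0.00. The partners called in the main setting are named next. These were beta-catenin, Ctnnb1 (−0.36, SE 0.05, adjusted p 0.000237), a Wnt effector that SOX proteins bind, the lysine methyltransferase Setd7 (−0.33, SE 0.06), the pseudokinase Trib2 (−0.32, SE 0.06) and the POU factor Pou3f2 (−0.25, SE 0.06), a partner of SOX2 and SOX11. Ctnnb1 had 18004 and 18235 normalised reads in the control cultures against 14215 and 14011 after DcpS depletion. The calls of Trib2 (adjusted p 0.0972) and Pou3f2 (0.1999) ended without control 1, and DESeq2 did not call Pou3f2 (0.0606). The number of calls moved with the library left out, and the fit without either DcpS shRNA library also held a higher call. The median was −0.06 without control 1 or control 2, −0.12 without DcpS shRNA 1 and 0.01 without DcpS shRNA 2.

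Of 18 tested progenitor genes linked to SOXB1 factors 2 were higher and 0 lower (median 0.01), where 2.14% and 3.65% of all genes were. The Hedgehog effector Gli3 rose (0.39, SE 0.07, adjusted p 0.00258), from 1982 and 2193 normalised reads in the controls to 2941 and 2550. Nestin, Nes, whose neural enhancer is bound by SOX2 with POU factors, rose as well (0.27, SE 0.06, adjusted p 0.0108), from 4330 and 4333 to 5562 and 4915. The count was 3 higher without control 1 and 4 higher without DcpS shRNA 2, and 3 genes were lower without DcpS shRNA 1.

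Of 18 tested young-neuron genes linked to SOXC factors 2 were lower and 0 higher (median −0.05), where 3.65% and 2.14% of all genes were. The homeobox factor Prox1 fell (−0.60, SE 0.13, adjusted p 0.0112), from 185 and 178 normalised reads to 123 and 117, and the semaphorin Sema3c fell (−0.22, SE 0.06, adjusted p 0.0246). The call of Sema3c ended without control 1 (adjusted p 0.0823) or control 2 (0.173), DESeq2 called neither Prox1 (0.126) nor Sema3c (0.102), and 7 genes of the list were lower and 1 higher without DcpS shRNA 1. The number lower was 1 without control 1 and 5 without the expression filter.

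Of 19 tested glial and cartilage genes linked to SOXE and SOXD factors 4 were lower and 2 higher (median −0.12). Among all genes tested 3.65% were lower and 2.14% higher. The collagen Col11a1 (−0.44, SE 0.07, adjusted p 0.000682), the water channel Aqp4 (−1.13, SE 0.25) and the growth-factor receptor Pdgfra (−0.63, SE 0.14) fell, and the glycolytic enzyme Aldoc rose (0.21, SE 0.05). The call of Aldoc ended without control 1 (adjusted p 0.132) or control 2 (0.205). The other called genes were Gfap (lower) and Mbp (higher). DESeq2 did not call Aqp4 (0.110), Pdgfra (0.168) or Mbp (0.221). The count was 0 higher and 5 lower without control 1, 1 higher and 3 lower without control 2, 3 higher and 5 lower without DcpS shRNA 1, and 1 higher and 5 lower without DcpS shRNA 2.

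Marker levels of the cells that express SOX genes were read beside these values. For each count of called markers, the shares of all genes tested were 2.14% higher and 3.65% lower. Radial glia markers, which share cells with SOXB1 genes and Sox9, summed to 48405 to 50725 normalised reads in the controls and 48114 to 50019 with DcpS shRNA. Of 13 tested, Nes was higher and Hopx lower (−0.50, SE 0.10), and the leading marker Pax6 did not pass (0.14, adjusted p 0.161). DESeq2 did not call Hopx (0.0783). Cell cycle genes summed to 46207 to 47851 in the controls and 47701 to 50174 with DcpS shRNA, with 1 of 18 higher, Mcm3 (0.20, SE 0.05), a call that ended without control 1 (adjusted p 0.0951), without control 2 (0.356) and with DESeq2 (0.145). Both sums overlapped between the groups. Of the 18 cell cycle estimates 14 were above 0 (77.8%, against 50.2% of all genes tested) and 4 below. Both DcpS shRNA libraries lay above both controls for 10 of the 18 and below both for 1, against 24.4% and 24% of all genes. Intermediate progenitor markers summed to 11040 to 11879 in the controls and 12220 to 12560 with DcpS shRNA. Of 10 tested 5 were higher and 0 lower, led by Btg2 (0.40, SE 0.06), Rhbdl3 (0.38, SE 0.07), Mfap4 (0.37, SE 0.07) and Neurod4 (0.67, SE 0.15). The defining factor Eomes did not pass (0.05, limma adjusted p 0.667). Nor did Neurog2 (−0.19, adjusted p 0.272), Neurod1 (−0.05, 0.777), Penk (−0.28, 0.798) or Insm1 (0.00, 0.981). The calls of Neurod4 and of Mfng, the other called gene, ended without control 2 (0.0985 and 0.373), and that of Mfng without DcpS shRNA 1 (0.124). DESeq2 called neither Neurod4 (0.135) nor Mfng (0.215), which left 3 higher, and without control 2 the count was 3 higher and 1 lower. The part of these cells in the values of Sox4, Sox12 and Sox21 was not tested.

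Astrocyte markers summed to 13645 to 13778 in the controls and 12806 to 12936 with DcpS shRNA, while Sox9 and Sox8 had estimates above 0. The counts of called markers here also stand beside 3.65% lower and 2.14% higher over all genes tested. Of 10 tested 5 were lower and 1 higher, led by the gap-junction gene Gja1 (−0.67, SE 0.08), Sparcl1 (−0.45, SE 0.06), Slc4a4 (−0.53, SE 0.09) and Aqp4, and Gfap was lower (−0.91, SE 0.21) except without control 2 (adjusted p 0.212). Oligodendrocyte lineage markers summed to 746 to 773 in the controls and 706 to 712 with DcpS shRNA. Olig1 had 52.3 and 39.0 normalised reads in the control cultures against 31.8 and 27.9 (−0.58, adjusted p 0.213, limma). Olig2 had 27.6 and 42.0 against 23.6 and 15.6 (−0.79, adjusted p 0.173). Neither was called, and estimates were below 0 for 7 of the 8 tested and above 0 for 1. Estimates were above 0 for 50.2% of all genes tested. Pdgfra is on this list and also on that of meningeal fibroblasts. Of 8 tested, Pdgfra was lower and Mbp higher (0.47, SE 0.12), the latter not without control 1 (adjusted p 0.177) or DcpS shRNA 2 (0.0618). DESeq2 called neither Pdgfra (0.168) nor Mbp (0.221), which left 0 of the list called. Interneuron markers, which share cells with Sox6, summed to 1208 to 1267 and 1257 to 1311. Of 11 tested, the neuropeptide Npy was higher (1.131, SE 0.24), though not by DESeq2 (0.134), and Gad1 (−0.55, adjusted p 0.0716) and Gad2 (−0.09, adjusted p 0.905) were not called. Endothelial and mural markers summed to 811 to 883 in the controls and 502 to 532 with DcpS shRNA, with 3 of 8 lower and 0 higher. The lower genes were Acta2 (−1.93, SE 0.23), Pdgfrb (−0.72, SE 0.09) and Kdr (−0.74, SE 0.18, not called without control 2, adjusted p 0.251, or by DESeq2, 0.217), and the defining endothelial genes Pecam1 and Cdh5 had under 20 normalised reads in every library. Pecam1 went against the list, at 5.70 and 12.3 in the control cultures against 19.99 and 14.5 with DcpS shRNA (0.93, adjusted p 0.263, limma). It had the only estimate of the list above 0, while Cdh5 overlapped between the groups (−0.59). Meningeal fibroblast markers were 13161 to 14509 in the controls and 7594 to 8011 with DcpS shRNA, with 10 of 11 lower. Among them were Col1a1 (−0.87, SE 0.06), Col1a2 (−0.85, SE 0.07), Col3a1 (−0.77, SE 0.06) and Postn (−1.07, SE 0.08). DESeq2 called 7 of the 10, and not Lum (0.286), Dcn (0.103) or Pdgfra (0.168). Lum (−0.37) was also not called without control 1 (0.0973), control 2 (0.106) or DcpS shRNA 1 (0.0980), and Fbn1 not without the expression filter (0.0947) or with the replicate block in limma (0.299). Microglia markers summed to 225 to 228 in the controls and 210 to 238 with DcpS shRNA. Limma, edgeR and DESeq2 each called 0 of 9, and limma estimates were above 0 for 4 and below 0 for 5. Only Tmem119 had an unadjusted p under 0.05 (limma). It was higher (0.56), at 28.5 and 25.6 normalised reads in the control cultures against 42.7 and 38.0 with DcpS shRNA. Aif1 had 54.2 and 47.2 normalised reads in the control cultures against 30.9 and 44.7 after DcpS depletion, and Cx3cr1 had under 20 in each library. How far these cell types entered the SOX values was not tested.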

How the data were processed

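RNA sequencing of 4 cultures was deposited as 1 table with a column per library. Its values are a signal, gene read counts that the authors divided by a size factor per library; the submitters' processing notes name HISAT2 2.2.0, SAMtools 1.3.1, Picard, featureCounts, DESeq2 and the build GRCm38, without role or order. Dividing each column by its smallest positive value gave whole reads for 100% of values (tolerance 0.001). No label or header states the annotation or strand setting. Groups and replicate numbers come from the sample titles.

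The values, called normalised reads, were tested as log2(value + 1) with limma 3.58.1 (R 4.3.3; intensity trend, robust, group as the only term, two-sided, Benjamini-Hochberg over 18110 genes kept by edgeR's filterByExpr with a minimum count of 10). Fold changes on this scale understate changes of low genes. The fit has 2 residual degrees of freedom. Alternatives used edgeR 4.0.16 and DESeq2 1.42.0 on the recovered reads, other pseudocounts, filters and scalings, a replicate block, and leaving out each library; leaving out 1 assumes that the lone library varies like the other group. Lengths, coordinates and transcripts are from GENCODE M21 (GRCm38), promoters from RefSeq. The members, lists and tests were chosen with earlier results of these data known. The text names all 10 members, the other SOX genes, up to 4 called genes of each other list by adjusted p and the first 2 of marker lists. Mfng, Neurog2, Neurod1, Penk, Insm1, Lum, Dcn, Fbn1 and Tmem119 were added after their values were seen.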

Additional observations from a re-analysis of the deposited data

How the results depend on the processing

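Over 14 alternatives each, the estimates of 9 members kept their sign, and that of Sox9 ran from −0.063 (without control 2) to 0.18 (without control 1). Sox4 and Sox12 were each called in 12 of the 14, Sox3 in 5, Sox21 in 2, Sox11 in 1 and the other 5 members in 0. The number of members called was 2 in the main setting, 1 with DESeq2 (Sox4) and 0 to 5 when 1 library was left out. The number of genes called was 1048 in the main setting, 448 with DESeq2 and 747 to 1745 when 1 library was left out, the highest without DcpS shRNA 1. The median log2 fold change of all genes was −0.00382 with TMM scaling and 0.000406 with library totals.

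With the replicate block, limma called 1626 genes and 4 members (Sox3, Sox4, Sox12 and Sox21), and edgeR called 1405 genes and 3 members. Deviations of same-numbered libraries from their group means had a correlation of 0.04 over 18110 genes, so the numbers are not taken to pair the cultures.

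Depth limits Sox7, Sox10, Sox15, Sox18 and Sox30, with at most 11 reads in any library, and overlapping genes limit Sox1, Sox4, Sox8 and Sox21.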

Other observations

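The 3 SOXB1 genes were all lower in control 2 than in control 1, by 0.18 on the log2 scale for Sox1, 0.23 for Sox2 and 0.38 for Sox3. The controls differed by 0.03 for Sox11 and Sox21. The DcpS shRNA libraries differed by 0.17 for Sox21 and 0.16 for Sox3, with library 2 lower, and by 0.12 for Sox11, with library 2 higher.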
